A study of Homo sapiens with 48 samples.

Results

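CAV1, CAV2, PTRF and PRKCDBP encode 4 components of the caveolar coat and made up 4 of the 327 genes measured in a pooled CRISPR knockout screen of squamous carcinoma cells. They were chosen by name, as the measured caveolin and cavin genes, and with earlier results of these data known. PTRF is the older symbol of cavin-1 (CAVIN1) and PRKCDBP that of cavin-3 (CAVIN3). None of 15 further symbols listed for the caveolar coat and neck, older names and the remaining caveolin and cavin genes included, was among the measured genes.

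Caveolae are flask-shaped pits of the plasma membrane, rich in cholesterol, that can flatten when the membrane is stretched and that are abundant in epithelial, endothelial, muscle and fat cells. Caveolins are hairpin proteins inserted into the inner leaflet and form the membrane scaffold, with CAV1 able to do so alone and CAV2 assembling with CAV1. Cavins form the outer, cytoplasmic coat: cavin-1 is required for caveolae to form, and cavin-3 joins the coat through cavin-1.

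The screen used 3 human squamous carcinoma lines that stably carried the Cas9 nuclease: A431 (epidermoid carcinoma), CAL27 (tongue) and SCC13 (skin). Cells of each line received a lentiviral library of guide RNAs against 334 genes, with 136 non-targeting guides, at a low multiplicity and under puromycin selection. Part was frozen as initial cells, and the rest was grown for 3 weeks in culture (2 A431 and 2 CAL27 cultures) or injected with Matrigel into the flanks of immunodeficient mice and taken as tumors after about 2 months (8 A431, 10 CAL27 and 16 SCC13 tumors). A431 and CAL27 cells grew in SHO mice and SCC13 cells in NOD.Cg-Prkdcscid Il2rgtm1Wjl/SzJ mice, so line and host strain cannot be told apart for SCC13, which has no culture table here. All groups carried Cas9 and the same library, and every value set a later sample against the initial cells of its own line and setting. Which tumors came from 1 mouse is not stated in the labels.

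Each of the 38 tumors and cultures had 1 value per gene, a log fold change of guide abundance. No source used here gives its log base, so values are called log units. The deposited value is relative to the non-targeting guides, which were at 0 in every column. The centred value is relative to the median gene of its column, and unless stated otherwise values below are centred. A positive value is read as a gain of the knockout relative to that reference. Read depth is unknown, and the columns carry no sample numbers, so a value column stands for 1 tumor or culture without saying which.

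The tables differed in scale before any member was considered. The SD over genes within a column was 0.50 to 0.59 log units for the cultures, 0.42 to 1.34 for tumors of A431, 1.09 to 2.23 for those of CAL27 and 1.89 to 2.87 for those of SCC13. Among tumors the median gene lay at -0.55 to -0.07 for A431, at -1.50 to -0.56 for CAL27 and at -2.67 to 0.53 for SCC13. In SCC13 tumors 8 to 145 genes per column differed from another column by exactly the same amount as at least 3 other genes did, as genes whose guides had no reads left in either column would. Such values need not be the lowest of a column. Value column 3 of SCC13 stood apart by its median, which was the highest (0.53). Among the 4 genes only PRKCDBP had them, in SCC13 columns 1 and 3.

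CAV1, the principal caveolin of non-muscle cells, lay above the median gene in 30 of 34 tumors over the 3 lines. In A431 tumors its knockout ranged from -0.36 to 1.51 log units with a median of 0.76 and a mean of 0.75 ± 0.70 (SD, n = 8), and 7 of the 8 tumors were above the median gene. CAL27 tumors ranged from -0.69 to 2.79 with a median of 1.92 and a mean of 1.73 ± 1.08 (SD, n = 10), with 9 of 10 above. In SCC13 tumors the range was -0.23 to 4.35, the median 1.70 and the mean 1.81 ± 1.40 (SD, n = 16), with 14 of 16 above. By its mean, CAV1 ranked 14 of 327 from the highest both in A431 and in CAL27 tumors, and 34 in SCC13 tumors. In culture it stayed close to the median gene, at 0.22 and 0.07 in A431 and at 0.12 and 0.0062 in CAL27. Against the non-targeting guides, the CAV1 knockout was above 0 in 5 of 8 A431, 9 of 10 CAL27 and 10 of 16 SCC13 tumors, with deposited means of 0.47 ± 0.71, 0.91 ± 1.05 and 0.19 ± 1.25 log units (SD).

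CAV2, the caveolin that assembles with CAV1, lay nearer to the median gene. A431 tumors ranged from -0.46 to 0.50 with a median of 0.18 and a mean of 0.12 ± 0.33 (SD, n = 8). CAL27 tumors ranged from -0.78 to 1.90 with a median of 0.61 and a mean of 0.58 ± 0.90 (SD, n = 10). SCC13 tumors ranged from -5.41 to 3.43 with a median of 0.57 and a mean of 0.50 ± 2.08 (SD, n = 16), which was 0.89 without column 2, the lowest, and 0.30 without column 7, the highest. It was above the median gene in 5 of 8, 8 of 10 and 10 of 16 tumors, and its SD exceeded its mean in every line. The lowest SCC13 value, in column 2, was the lowest centred value of any of the 4 genes and ranked 324 of 327 there. The cultures gave 0.29 and 0.17 in A431 and 0.12 and -0.04 in CAL27. Relative to the non-targeting guides the tumor means were below 0 in all 3 lines, at -0.15, -0.23 and -1.12 log units.

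PTRF, the cavin without which caveolae do not form, had line means that lay farther apart than those of the other genes. In A431 tumors it ranged from 0.00 to 1.76 with a median of 0.77 and a mean of 0.84 ± 0.54 (SD, n = 8). There 7 tumors were above the median gene, and in the other it was the median gene itself. CAL27 tumors ranged from -1.12 to 1.64 with a median of 0.27 and a mean of 0.38 ± 0.85 (SD, n = 10), with 6 above the median gene and 4 below. In SCC13 tumors all 16 values were above the median gene, from 0.72 to 6.63, with a median of 3.24 and a mean of 3.17 ± 1.77 (SD, n = 16). The highest value came from column 3, and without that column the mean was 2.94. Among the 327 means PTRF ranked 5 from the highest in SCC13 tumors, 10 in A431 tumors and 114 in CAL27 tumors.

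In culture PTRF was at 0.12 and 0.10 in A431, above the median gene, and at -0.32 and -0.49 in CAL27, below it, at ranks 253 and 264 of 327. Relative to the non-targeting guides the PTRF knockout was above 0 in 7 of 8 A431 tumors, 2 of 10 CAL27 tumors and 12 of 16 SCC13 tumors. Its deposited means were 0.56 ± 0.56, -0.44 ± 0.81 and 1.55 ± 2.07 log units (SD). Thus in CAL27 tumors the knockout lay above the median gene on average and below the non-targeting guides.

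PRKCDBP, the cavin that joins the coat through cavin-1, gave the lowest mean of the 4 genes in A431 tumors. There it ranged from -1.11 to 0.92 with a median of -0.06 and a mean of 0.03 ± 0.65 (SD, n = 8), with 4 tumors on each side of the median gene. CAL27 tumors ranged from -0.76 to 2.28 with a median of 1.09 and a mean of 1.03 ± 0.93 (SD, n = 10), with 9 of 10 above. SCC13 tumors ranged from -1.99 to 4.94 with a median of 2.11 and a mean of 1.76 ± 1.77 (SD, n = 16), with 14 of 16 above. The lowest SCC13 value, in column 1, and the value of 2.26 in column 3 were the ones with shared differences, at ranks 234 and 47 of 327 from the highest. The cultures gave -0.0012 and -0.20 in A431 and 0.09 and 0.23 in CAL27. Relative to the non-targeting guides the tumor means were -0.25, 0.21 and 0.15 log units, with 3 of 8, 5 of 10 and 8 of 16 tumors above 0.

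**Figure D1:**
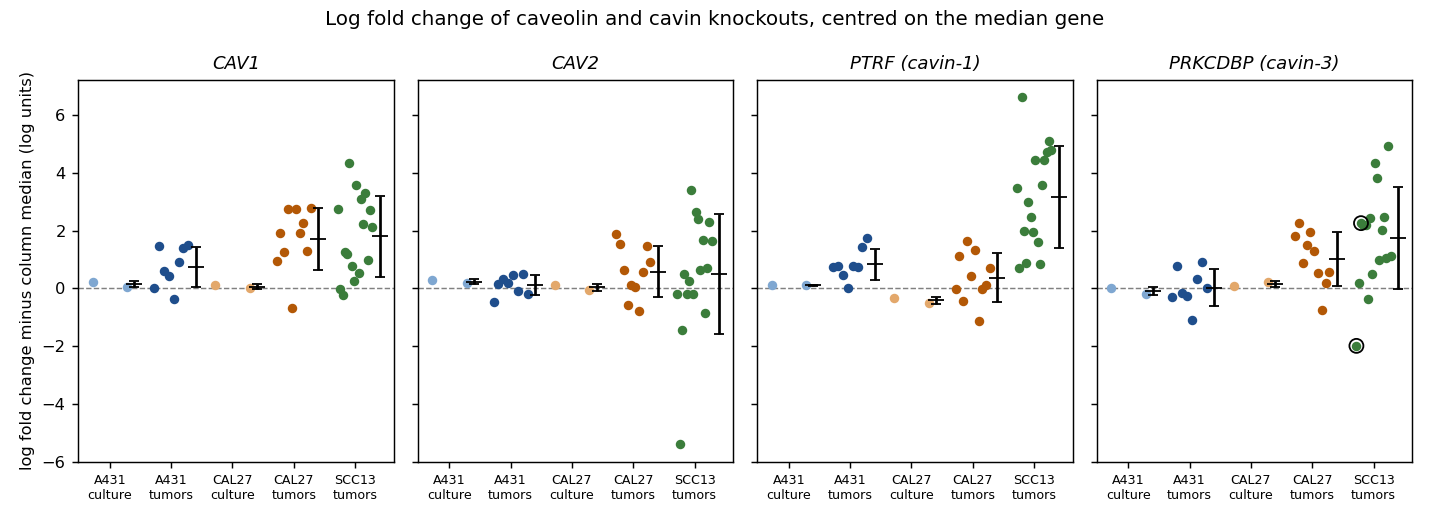
Centred log fold change (log units, y axis) of each of the 4 genes in every tumor and culture, by line and setting; points are value columns, with the mean and SD. PTRF lay above the median gene (0) in all 16 SCC13 tumors, from 0.72 to 6.63, and below it in both CAL27 cultures.

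**Figure D2:**
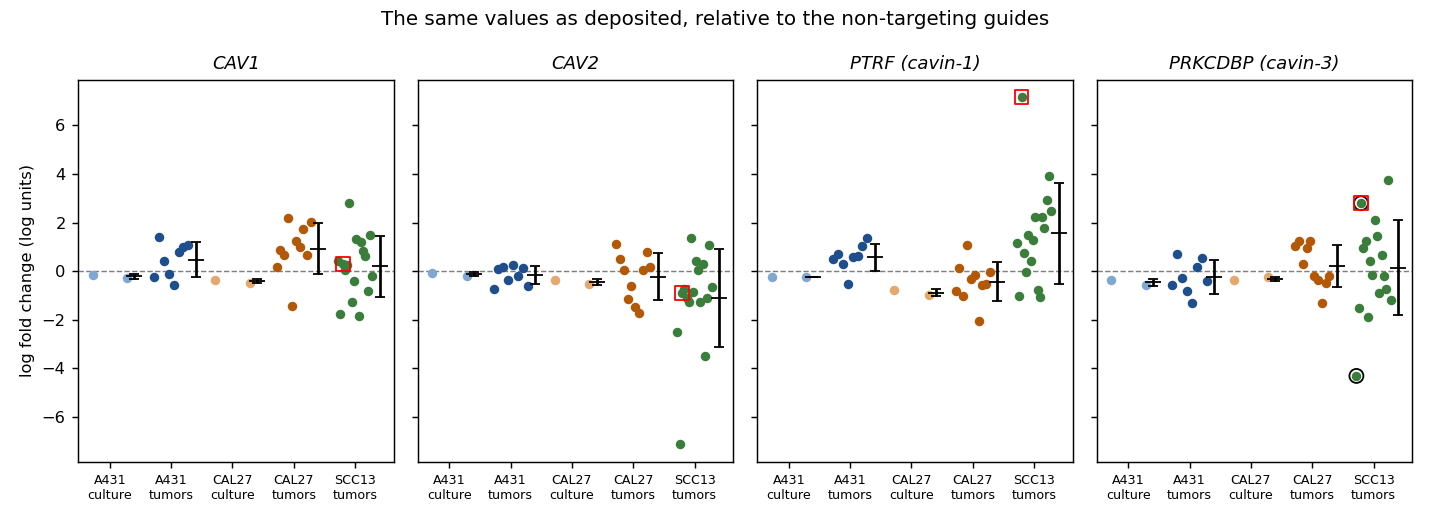
The same values as deposited, relative to the non-targeting guides (0), in log units; the red square marks SCC13 value column 3 and black circles mark values with differences shared by several genes. PTRF was above 0 in 2 of 10 CAL27 tumors and 12 of 16 SCC13 tumors, and the mean of CAV2 was below 0 in the tumors of all 3 lines.

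In the limma fits across all 327 genes (adjusted p under 0.05), 2 of the 4 genes, CAV1 and PTRF, were called higher than the median gene in A431 tumors, where 7.95% of all genes were and 11.9% were called lower. In CAL27 tumors 2 of 4, CAV1 and PRKCDBP, were called higher, beside 18.7% of all genes higher and 22% lower. In SCC13 tumors 3 of 4 were called higher, all but CAV2, beside 23.5% of all genes higher and 23.9% lower. In the cultures 0 of 4 were called in either direction, beside 2.14% of genes higher and 11.3% lower in A431 and 4.89% higher and 18.7% lower in CAL27. These are the contrasts in which the genes were chosen, so the counts describe them and are no evidence about them. PTRF in CAL27 culture, with a mean of -0.41, missed the threshold narrowly (limma adjusted p = 0.0503). It passed as lower with robust eBayes (adjusted p = 0.037). The A431 call of CAV1 was lost without any 1 of value columns 2, 3, 4, 6, 7 and 8, where 1 of the 4 genes was left. The share of all genes called without a column was not counted.

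Against the non-targeting guides fewer of the 4 were called higher. In A431 tumors 0 of 4 were, beside 2.14% of all genes higher and 22.3% lower. In CAL27 tumors CAV1 alone was, beside 5.5% higher and 50.2% lower. In SCC13 tumors PTRF alone was, beside 3.98%, and CAV2 was called lower there together with 67.3% of all genes. All 4 were called lower in CAL27 culture, as were 89.6% of all genes, and PRKCDBP was in A431 culture, as were 41.6%.

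Ranks within a column do not depend on its scale. PTRF had a median rank of 24 from the highest in SCC13 tumors (6 to 137), 49 in A431 tumors (4 to 164) and 127 in CAL27 tumors (46 to 243). CAV1 had median ranks of 40.5 in A431, 33 in CAL27 and 62.5 in SCC13 tumors, and PRKCDBP of 181, 83 and 66. CAV2 stood between 103 and 133 in all 3. On this scale PTRF was again the gene with the highest median rank in SCC13 tumors and the lowest in CAL27 tumors, and CAV1 was the first of the 4 in A431 and CAL27 tumors.

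**Figure D3:**
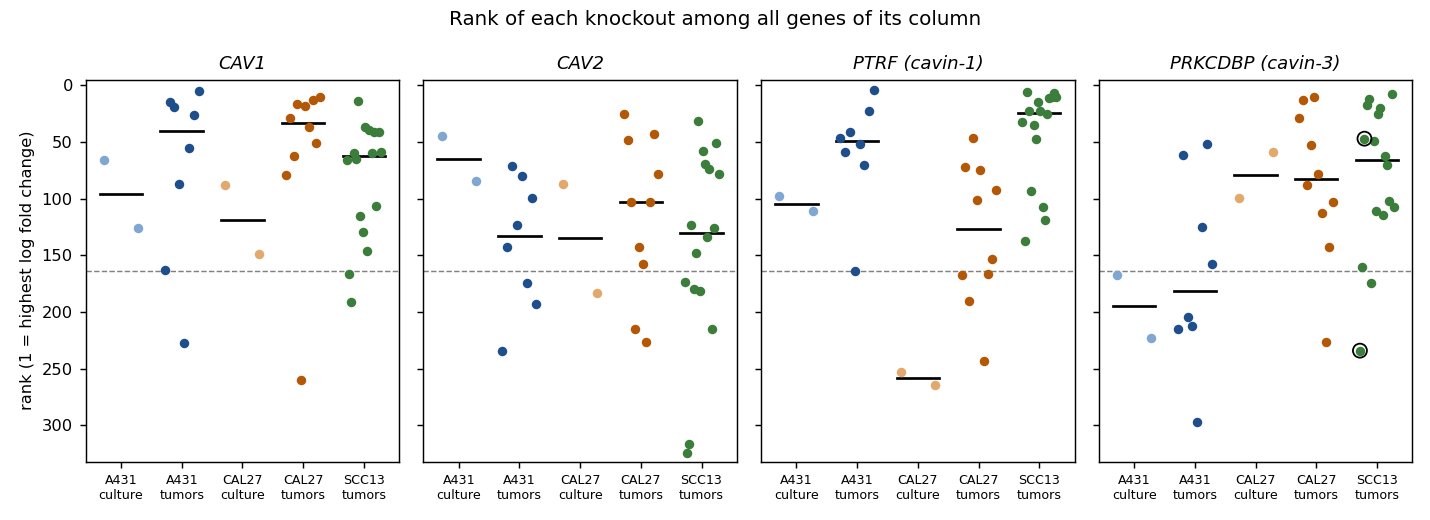
Rank of each of the 4 genes among 327 genes (y axis, 1 is the highest value) in every tumor and culture. PTRF had a median rank of 24 in SCC13 tumors, 49 in A431 tumors and 127 in CAL27 tumors.

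Growth in mice was then compared with growth in culture within a line. The 4 genes were proposed with these data known, so p-values here and for the contrasts between lines are not independent evidence. In A431 the CAV1 mean was 0.60 log units higher in tumors than in culture (SE 0.50), and 6 of 8 tumors lay above both cultures. PTRF was 0.73 higher (SE 0.43), with 7 of 8 tumors above both cultures, and CAV2 and PRKCDBP differed by -0.11 (SE 0.37) and 0.13 (SE 0.48). With 1 spread for both settings, limma gave adjusted p = 0.91 for CAV1, 0.81 for PTRF and 0.99 for CAV2 and PRKCDBP. None of the 4 passed, beside 0% of all 327 genes, of which 20 had an unadjusted p under 0.05. With its own spread for each setting the adjusted p was 0.19 for CAV1 and 0.078 for PTRF, and 4.28% of all genes passed as higher and 3.36% as lower.

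In CAL27 the CAV1 knockout was 1.67 log units higher in tumors than in culture, with 9 of 10 tumors above both cultures. PRKCDBP was 0.87 and PTRF 0.78 higher, each with 8 of 10 tumors above both cultures, and CAV2 was 0.55 higher with 6 of 10. With 1 spread (SE 0.79, 0.74, 0.71 and 0.73) limma called none of the 4, nor any of the 327 genes (0%), of which 30 had an unadjusted p under 0.05; the adjusted p of CAV1 was 0.52. With own spreads CAV1 passed (SE 0.37, adjusted p = 0.0022), as did 16.5% of all genes in that direction and 14.4% in the other, and PRKCDBP (0.062), PTRF (0.081) and CAV2 (0.25) did not. The CAV1 call held with own spreads without each tumor in turn (adjusted p 0.00027 to 0.0066). It was lost without either of the 2 cultures (adjusted p = 0.99 without culture column 1 and 0.98 without column 2), where the 1 culture left gives no spread of its own and is assumed to vary like the tumors. After division of each column by its own spread over genes (the median absolute deviation), PTRF passed (adjusted p = 0.015) beside 19% of all genes higher, and CAV1 did not (0.32). With own spreads, PTRF also passed without tumor column 7 (adjusted p = 0.040) and PRKCDBP without column 8 (0.027). The 2 cultures of CAL27 lay closer together than its tumors, with an SD for CAV1 of 0.08 against 1.08.

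Between the 2 cultured lines PTRF differed by -0.52 log units (CAL27 minus A431, SE 0.13). The 2 centred CAL27 values lay below both A431 values for PTRF and also for CAV2, and above both for PRKCDBP, while those of CAV1 overlapped. As deposited, the CAL27 values of CAV1 also lay below both A431 values, and those of PRKCDBP overlapped. The share of all genes whose values separate in this way was not counted. The PTRF difference missed the threshold (limma adjusted p = 0.093, beside 0.306% of all genes called higher and 2.75% lower). As deposited the difference was -0.64 (SE 0.13, adjusted p = 0.047), beside 6.42% of genes lower. CAV1, CAV2 and PRKCDBP differed by -0.08 (SE 0.13), -0.20 (SE 0.14) and 0.26 (SE 0.14), with adjusted p of 0.79, 0.44 and 0.33.

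Between tumors of the lines, PTRF differed the most. Its mean was 2.79 log units higher in SCC13 than in CAL27 tumors (SE 0.57, limma adjusted p = 0.00021), and 12 of 16 SCC13 tumors lay above every CAL27 tumor. It was the 1 of the 4 genes called higher there, beside 9.79% of all genes higher and 7.95% lower. As deposited the difference was 1.99 (SE 0.62, adjusted p = 0.015), beside 3.67% of genes higher, and without SCC13 column 3 it was 1.61 (adjusted p = 0.016). The call held in 58 of 58 alternatives. The spreads of the groups overlapped: the lowest SCC13 value, 0.72, lay within the CAL27 range.

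PTRF was also 2.33 log units higher in SCC13 than in A431 tumors (SE 0.61, adjusted p = 0.0053), with 12 of 16 SCC13 tumors above every A431 tumor. PRKCDBP was 1.74 higher in the same comparison (SE 0.61, adjusted p = 0.034), again with 12 of 16 above. These 2 of 4 were called higher, beside 10.4% of all genes higher and 10.7% lower. Neither held as deposited, where PTRF differed by 0.99 (SE 0.67, adjusted p = 0.23) and PRKCDBP by 0.39 (adjusted p = 0.64), beside 1.53% of genes higher. Nor did they after division by the median absolute deviation, with adjusted p of 0.60 and 0.068, beside 7.03% of genes higher. The PRKCDBP call was also lost without any 1 of A431 columns 1, 3, 4, 5 and 8 or SCC13 columns 9, 10 and 15 (adjusted p 0.051 to 0.083).

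Between CAL27 and A431 tumors 0 of 4 were called, beside 0.306% of all genes higher and 3.06% lower. The differences were 0.98 (SE 0.64) for CAV1, 0.46 (SE 0.71) for CAV2, -0.46 (SE 0.67) for PTRF and 1.00 (SE 0.67) for PRKCDBP, with adjusted p of 0.49, 0.90, 0.89 and 0.49. SCC13 tumors were 0.08 (SE 0.54) from CAL27 in CAV1, -0.08 (SE 0.60) in CAV2 and 0.74 (SE 0.57) in PRKCDBP (adjusted p = 0.94, 0.94 and 0.37). Against A431 they differed by 1.06 (SE 0.58, adjusted p = 0.21) in CAV1 and 0.38 (SE 0.64, adjusted p = 0.77) in CAV2. By centred means, the lines ran SCC13, A431, CAL27 for PTRF, with no call between the last 2, and SCC13, CAL27, A431 for PRKCDBP, with no call between neighbours. For CAV1 the order was SCC13, CAL27, A431 and for CAV2 CAL27, SCC13, A431, with no call between any of them. The order of CAV1 turned as deposited, where SCC13 lay below A431 by -0.28 and below CAL27 by -0.72, and after division by the median absolute deviation (-0.35 and -0.61). By deposited means the order of CAV2 became A431, CAL27, SCC13 (-0.15, -0.23 and -1.12). That of PRKCDBP became CAL27, SCC13, A431 (0.21, 0.15 and -0.25), and that of PTRF stayed.

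**Figure D4:**
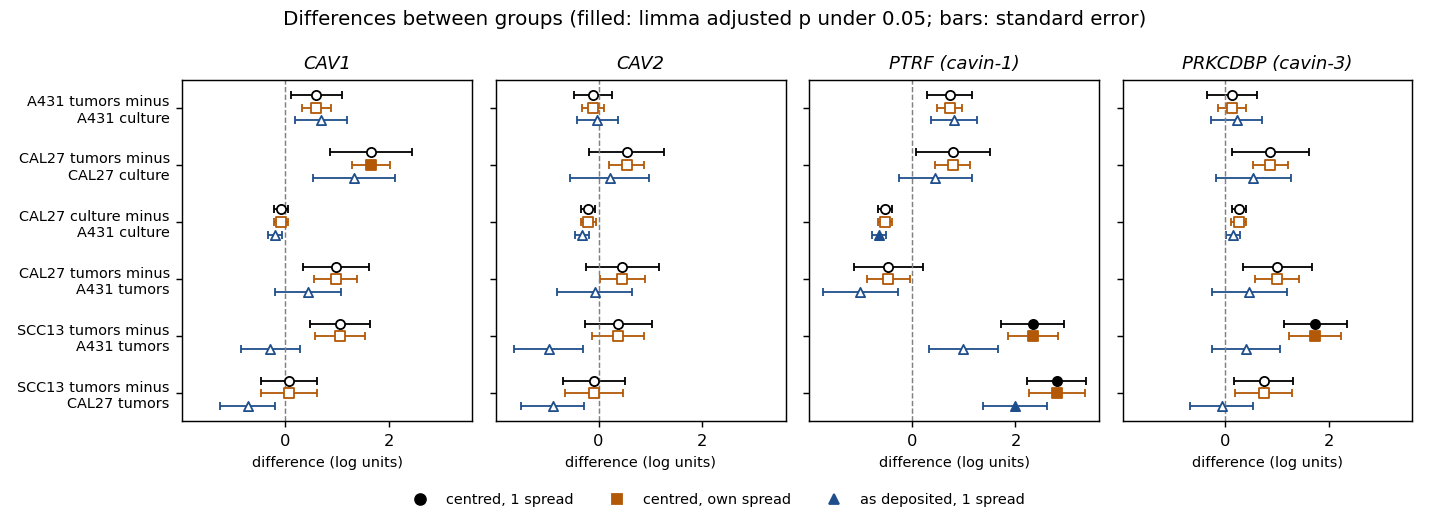
Differences between settings or lines (log units, x axis; bars are standard errors) for each of the 4 genes under 3 ways of handling the values; filled points have an adjusted p under 0.05. The SCC13 minus CAL27 difference of PTRF (2.79 centred, 1.99 as deposited) passed under each, and the SCC13 minus A431 difference (2.33 centred) did not as deposited.

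The coat components were set against each other within each column, where centring cancels. In A431 tumors PTRF and CAV1 had a mean difference of 0.09 ± 0.60 (PTRF minus CAV1, SD, n = 8), with PTRF higher in 4 of 8. In CAL27 tumors it was -1.35 ± 1.11 (SD, n = 10), with PTRF higher in 1 of 10, and in SCC13 tumors 1.36 ± 2.06 (SD, n = 16), with PTRF higher in 13 of 16. Without SCC13 column 3, which had the highest difference (6.86), the SCC13 mean was 1.00. The knockout of the cavin thus lay below that of the caveolin in nearly all CAL27 tumors and above it in most SCC13 tumors. Both CAL27 cultures also had PTRF below CAV1, by -0.44 and -0.50.

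The 2 cavins did not run level either. PTRF exceeded PRKCDBP in 8 of 8 A431 tumors, by 0.81 ± 0.69 (SD), and in 12 of 16 SCC13 tumors, by 1.41 ± 2.18 (SD). Without the 2 SCC13 columns in which PRKCDBP had shared differences, the last was 0.91 ± 1.80 (SD, n = 14), with PTRF higher in 10 of 14. In CAL27 tumors PTRF was the higher in 4 of 10, with a mean difference of -0.65 ± 0.94 (SD). CAV1 exceeded CAV2 in 7 of 8, 7 of 10 and 14 of 16 tumors, by 0.63 ± 0.78, 1.14 ± 1.53 and 1.31 ± 2.11 log units (SD). The mean of the cavins minus that of the caveolins was 1.31 ± 1.58 in SCC13 tumors, 0.0002 ± 0.31 in A431 tumors and -0.45 ± 0.96 in CAL27 tumors (SD), above 0 in 13 of 16, 4 of 8 and 2 of 10. Without the same 2 SCC13 columns the SCC13 value was 1.16 ± 1.17 (SD, n = 14), above 0 in 12 of 14.

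Which of the 4 was highest varied by line. CAV1 and PTRF each led in 4 of 8 A431 tumors. In CAL27 tumors CAV1 led in 6 of 10, CAV2 and PRKCDBP in 2 each and PTRF in 0. In SCC13 tumors PTRF led in 10 of 16, PRKCDBP in 3, CAV1 in 2 and CAV2 in 1, and CAV2 was the lowest of the 4 in 11. All 4 were above the median gene together in 2 of 8, 4 of 10 and 9 of 16 tumors.

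CAV1 and CAV2 are neighbours: in GENCODE annotation on GRCh37, CAV1 spans chr7:116165048-116201233 and CAV2 chr7:115927434-116148595, both on the forward strand and 16452 bases apart. The tables name genes only, and no source used here gives the authors' build. Across tumors of a line their values had Pearson r of -0.0013 in A431 (n = 8), -0.21 in CAL27 (n = 10) and 0.32 in SCC13 (n = 16), and Spearman rho of -0.17, -0.36 and 0.21. CAV1 and PTRF, on different chromosomes (PTRF at chr17:40554467-40575274, reverse strand), had r of 0.56, 0.36 and 0.17 and rho of 0.67, 0.49 and 0.18. Without the 2 tumors farthest from the median of CAV1, r was 0.87, 0.62 and 0.54 for this pair. For CAV1 and CAV2 it was then -0.19, -0.42 and 0.31. CAV1 and PRKCDBP (chr11:6340176-6341762, reverse strand) had r of 0.87 in A431 (rho 0.83), -0.34 in CAL27 and -0.03 in SCC13. Without the same 2 tumors of each line r was 0.72, 0.13 and 0.20, so its sign turned in CAL27 and SCC13. These correlations describe columns that share initial cells, and none was tested.

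**Figure D5:**
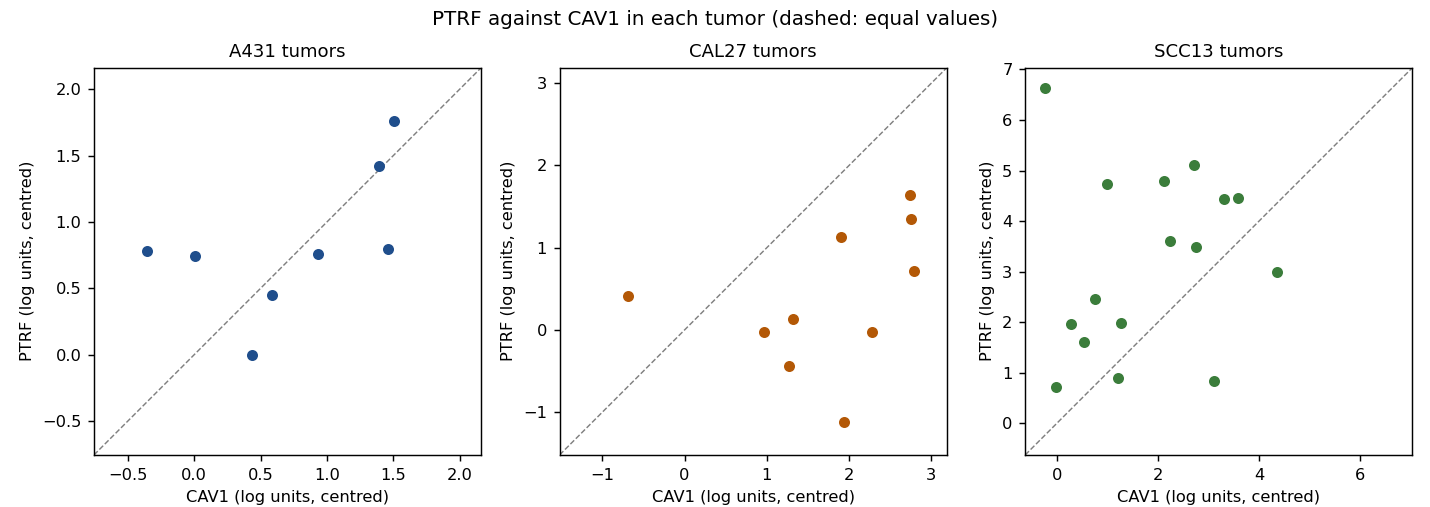
PTRF against CAV1, centred log units, 1 point per tumor and 1 panel per line, with the line of equal values. CAL27 points lie below that line in 9 of 10 tumors and SCC13 points above it in 13 of 16.

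Among genes outside the 4, those whose values most resembled each across tumors were taken by Pearson r within each line, averaged over the 3 lines. For CAV1 they were ITGB4 (mean r 0.63), LGALS7B (0.57) and LGALS7 (0.46), where LGALS7 and LGALS7B are near-identical copies of galectin-7 whose guides may cut both. With the coat genes included, PTRF was the 16th by this measure (0.36) and CAV2 the 140th. For CAV2 they were IFITM3 (0.59), ZBTB7B (0.51) and DCN (0.49), for PTRF JUNB (0.51), FAM213A (0.50) and MCM5 (0.45), and for PRKCDBP IRF3 (0.50), RRM2 (0.48) and SMARCA4 (0.43). Several of these means rested on some lines only. In A431, CAL27 and SCC13 tumors r was 0.66, 0.68 and 0.15 for IRF3 and 0.79, 0.10 and 0.56 for RRM2, both with PRKCDBP. For FAM213A with PTRF it was 0.57, 0.78 and 0.16. Likeness was taken over 34 tumors in 3 tables, with no test, and the genes were picked as the highest among all outside the 4.

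Genes linked to caveolae by function were in the library in part. Of 23 symbols of receptors and adhesion proteins listed, 9 were measured. Of these, 1, 2 and 2 were called higher in A431, CAL27 and SCC13 tumors, beside 7.95%, 18.7% and 23.5% of all genes. Another 5, 4 and 4 were called lower, beside 11.9%, 22% and 23.9% of all genes. Their median means were -1.15, -0.79 and -0.21 log units, beside medians of 0.02, 0.01 and -0.02 over all genes. The epidermal growth factor receptor EGFR (-1.76, -2.98 and -3.10), the integrin subunit ITGB1 (-2.26, -3.67 and -2.73) and the integrin activator FERMT1 (-1.99, -4.14 and -1.88) fell in all 3 lines. FHL2, a LIM-domain protein that binds integrins, rose in all 3 (0.59, 1.70 and 2.29). ITGB4, a subunit of the hemidesmosomal integrin and the gene most like CAV1, had the highest mean of the list in A431 (0.66, not called) and in SCC13 tumors (2.42).

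Caveolae are tied to the actin cortex, and 12 of 27 listed symbols of actin and membrane tension were measured. In A431, CAL27 and SCC13 tumors 1, 3 and 5 were called higher (7.95%, 18.7% and 23.5% of all genes) and 2, 4 and 3 lower (11.9%, 22% and 23.9%), with medians of -0.07, 0.15 and 0.23. Profilin PFN1 (-2.07, -3.98 and -2.89) and the Arp2/3 subunit ARPC2 (-0.83, -2.41 and -3.09) fell in all 3 lines, and the tropomyosin TPM2 (0.86, 2.49 and 3.96) rose in all 3. Of 20 listed symbols of membrane lipids 4 were measured, with 1, 2 and 1 called higher and 0, 2 and 2 lower, beside the same shares of all genes. DEGS1, an enzyme of ceramide synthesis, rose in all 3 lines (1.05, 2.73 and 4.07). The lowest means of that list were those of FABP5, a fatty acid binding protein, in A431 (-0.47, not called) and SCC13 tumors (-2.42), and of GLTP, a glycolipid transfer protein, in CAL27 tumors (-2.21). TPM2 shared its exact value with another gene in 3, 1 and 1 columns, which none of the 4 coat genes did. The listed genes were chosen with earlier results known, and their directions were taken relative to the median gene.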

How the data were processed

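Guide RNAs were sequenced from 48 samples, 10 of them initial cells. Bowtie2 was used, per the submitters' processing notes, with no version named. The authors deposited, for each line and setting, a table of log fold changes per gene with 327 genes and 1 row of non-targeting guides. The deposited values are treated as a score on a log scale of unknown base: no counts, guide summary, pseudocount or build is given in the sources used here, and 7 library genes have no row. Columns carry no sample numbers; all 38 were mapped to their group.

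Values were centred on the column median over genes. limma 3.58.1 in R 4.3.3 (lmFit, eBayes, Benjamini-Hochberg over 327 genes at 0.05) was fitted on all genes, with 1 spread for the groups compared; the cultures of both lines and the tumors of all 3 lines were fitted in 1 model each. Alternatives were the deposited values, division by the column's median absolute deviation, robust eBayes, own spreads per group, values with shared differences set to missing, sign-flip permutation and leaving out each column. A value counted as having a shared difference where at least 4 genes differed between 2 columns by the same amount to 6 decimals. Comparisons across tables assume 1 log base and guide summary. The error of the initial cells, shared by all columns of a table, is in no test, and p-values cover only how these tumors or cultures vary, which may be technical. The fits were also run on simulated tables of independent normal values with each gene's own SD. Those held no shared error of initial cells and no shared differences, so that run does not bear on these limits. The members and the 4 gene lists (caveola coat and neck, receptors and adhesion, actin and membrane tension, membrane lipids) were chosen with earlier results of these data known. Named genes were the 4 members and the 3 genes outside the members most like each by mean r. Per list, they were the highest and lowest mean per tumor table and genes called the same way in all 3 lines. Guide and protein sequences were not used here.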

Additional observations from a re-analysis of the deposited data

Results flagged for a closer look

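The CAV1 value of -0.69 log units in CAL27 tumor column 5 stood apart from the other 9 CAL27 tumors, the next lowest of which was 0.96. Its gap was 0.474 of the group's range, just past the critical value of 0.466. The test was run at both ends in 8 groups of 8 or 10 tumors, chance marks about 1 in 20, and this was the only one marked. The groups were the 4 genes in A431 and in CAL27 tumors, so they share tumors, and SCC13 tumors were not tested. PRKCDBP was at 1.97 and PTRF at 0.42 in the same column, so the low value was not shared by the coat genes. Without it the mean difference of CAV1 between CAL27 tumors and culture was 1.93.

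Between-line differences passed the limma test in 3 cases. PTRF was 2.79 log units higher in SCC13 than in CAL27 tumors and 2.33 higher than in A431 tumors, and PRKCDBP was 1.74 higher in SCC13 than in A431 tumors. The larger spread over genes in SCC13 columns and the larger number of genes with differences shared between columns moved with these differences, and their part in them was not tested beyond the alternatives given for each.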

How the results depend on the processing

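Of 696 alternatives for counts of called genes and coat differences, 654 were labelled the same. For a count this meant equal or nearly so, and for a difference a move of less than its SD over columns. A median, or a mean without 1 column, cannot move by more than that SD. Those labels were therefore fixed in advance and say nothing about stability. Direction was not part of that rule: PTRF minus CAV1 in A431 tumors had a mean of 0.09 and a median of -0.05. Of 1148 for single genes, 1048 kept direction and side of the threshold. Where an alternative gave no p-value, a move of less than the SD counted instead, which again a median or 1 left culture cannot exceed. As deposited, the genes called higher were 0 in A431, 1 in CAL27 and 1 in SCC13 tumors, and those lower 1 in SCC13 tumors, 1 in A431 culture and 4 in CAL27 culture. With robust eBayes on centred values 1 gene, PTRF, was called lower in CAL27 culture, which it was not in the plain fit. Sign-flip permutation gave 0 in A431 tumors, and leaving out columns 1 to 2. For CAL27 tumors minus culture, division by the median absolute deviation gave 1 and own spreads 1. Leaving out a tumor gave 0 with 1 spread and 1 to 2 with own spreads. CAL27 minus A431 culture gave 1 lower as deposited. CAL27 minus A431 tumors gave 0 without a column with 1 spread, and 0 to 1 with own spreads. SCC13 minus A431 tumors gave 0 as deposited, 0 after division and 1 to 2 without a column. As deposited without SCC13 column 3, an alternative chosen after seeing the data as were own spreads without a column, counts were 1 higher and 1 lower in SCC13 tumors and 0 for SCC13 minus A431. The share of all genes called was not counted for robust eBayes, sign-flip permutation, left-out columns or deposited values without column 3. Whether the counts of the 4 genes differ from that share there is therefore unknown.

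Deposited means changed sign for CAV2 (-0.15 in A431, -0.23 in CAL27, -1.12 in SCC13 tumors, -1.13 without column 3), PTRF (-0.44 in CAL27 tumors) and PRKCDBP (-0.25 in A431 tumors, -0.032 in SCC13 tumors without column 3). PRKCDBP in A431 tumors was -0.10 after division and -0.10 to 0.19 without a column. In A431 culture deposited means were -0.22 for CAV1, -0.13 for CAV2 and -0.25 for PTRF, and in CAL27 culture -0.42, -0.44 and, for PRKCDBP, -0.32. Deposited differences changed sign for CAV2 in CAL27 minus A431 tumors (-0.076). SCC13 minus A431 gave -0.28 for CAV1 (-0.29 without column 3, -0.35 after division) and -0.96 for CAV2 (-0.98). SCC13 minus CAL27 gave -0.72 for CAV1 (-0.73 without column 3, -0.61 after division) and -0.070 for PRKCDBP (-0.25). Without a column, the last contrast ran from -0.19 to 0.22 for CAV1 and -0.28 to 0.31 for CAV2.

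No paired analysis was possible because the value columns carry no replicate numbers. Read depth is unknown, so no counting error can be given.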
